A study of Blattella germanica with 16 samples.

Results

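The comparison described here set fat bodies of German cockroach females treated with double-stranded RNA (dsRNA) against insulin receptor 2 (dsInR2) against those treated with dsRNA against insulin receptor 3 (dsInR3). It took the 4 libraries of each treatment, 8 of the 16 in the series, and covered all genes of the deposited table, 28676 in all, of which 10536 passed the filter on low counts and were tested. The 4 libraries of the control dsRNA (dsMock) served to place each difference, and the 4 libraries of dsRNA against insulin receptor 1 (dsInR1) entered the model only for its estimate of the spread. All groups share the injections. Per the labels, every adult female of Blattella germanica received 2 injections of 2 µg of dsRNA into the abdomen, the first on the day when ootheca (egg case) transport began and the second 7 days later, and animals were reared at 30 °C and 70% humidity on dog food. The egg case was taken off on day 12, and tissue was dissected on day 5 of the following reproductive cycle; by another label the injections preceded extraction by 12 and 5 days, which the labels leave unreconciled. The labels do not say how many females went into a library, and p-values measure only the spread between these libraries.

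Insulin receptors are tyrosine kinases of the cell membrane that bind insulin-like peptides and signal through phosphatidylinositol 3-kinase and Akt to the transcription factor FoxO and to the TOR kinase. The insect fat body stores glycogen and fat, makes the sugar trehalose for the hemolymph and secretes most hemolymph proteins. In reproducing females it also makes yolk proteins under the control of juvenile hormone and nutrient signals. RNA interference by injected dsRNA acts through the body and degrades the matching transcript. Secreted proteins enter the endoplasmic reticulum through the Sec61 channel, are folded there by chaperones and leave in coated vesicles, the export machinery of the cell.

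Library totals ran from 16385925 to 23688522 reads in dsInR2, from 15453255 to 20993047 in dsInR3 and from 15345964 to 21188257 in dsMock. One transcript without a product name, C0J52_15443, took 0.0822%, 6.99%, 6.38% and 2.3e-04% of the reads in dsInR2 libraries 1, 4, 7 and 8, against 35.1%, 53.8%, 56.9% and 54.8% in dsInR3 libraries 3, 5, 6 and 7, and 51.1% to 58.8% in dsMock. Levels are therefore given as CPM, read counts scaled to library size after TMM, a normalisation that sets most genes of the libraries to a common level. Library 3 of dsInR3 stood apart: on the first principal component, with 30.0% of the variance, it lay at 13.8, the other dsInR3 libraries at -25.2 to -13.8, dsInR2 at 55.9 to 78.9 and dsMock at -33.3 to -27.1. Of the 2 fat body markers that the annotation names, apolipophorin and hexamerin, the sum was 58395 to 77230.1 CPM in dsInR2, 27209 to 33450 CPM in dsInR3 and 22487 to 37203 CPM in dsMock. That sum is nearly all apolipophorin: hexamerin alone had 1.75 to 118 CPM in dsInR2, 117 to 268 CPM in dsInR3 and 152 to 312 CPM in dsMock. No product in the annotation is named vitellogenin. Of other tissues' markers, the 19 muscle genes summed to 179 to 414 CPM in dsInR2, with 2 at 0, and 130 to 244 CPM in dsInR3, with 1 at 0. The 4 hemocyte genes summed to 141 to 395 CPM in dsInR2 and 136 to 206 CPM in dsInR3, none at 0. The 10 ovary genes had 186 to 235 CPM in dsInR2, with 2 at 0, and 234 to 273 CPM in dsInR3, with 1 at 0. The 48 nervous genes had 194 to 332 CPM in dsInR2 and 165 to 190 CPM in dsInR3, with 21 at 0 in each. Without their member VAT1L the sums overlapped, at 77.8 to 114 CPM in dsInR2 and 93.6 to 102 CPM in dsInR3. The 56 epidermal and tracheal genes had 7.54 to 20.8 CPM in dsInR2, with 43 at 0, and 8.85 to 16.1 CPM in dsInR3, with 39 at 0. Without their member CUO7_0 the sums were 3.61 to 7.16 CPM in dsInR2 and 7.44 to 15.7 CPM in dsInR3. Gut and Malpighian tubule markers, 29 genes of which 10 were at 0 in each treatment, summed to 197 to 233 CPM in dsInR2, 394 to 707 CPM in dsInR3 and 372 to 957 CPM in dsMock. Without 1 of them, the maltase Mal-B1_3, they summed to 168 to 208 CPM in dsInR2, 126 to 156 CPM in dsInR3 and 92.0 to 125 CPM in dsMock. Of the 13 tested, 2 were called higher and 2 lower in dsInR2 than in dsInR3. These shares of 15.4% each stood beside 11.6% higher and 11.3% lower of all tested genes. The part that these tissues play in the results was not tested, and in bulk RNA fewer cells of a type cannot be told apart from less RNA per cell.

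The annotation holds 1 insulin receptor, InR (locus C0J52_14014, contig PYGN01000591.1 from 866355 to 953667 of build Bger_1.1), without saying which of the 3 receptors it is. InR had 5.95, 3.42, 7.90 and 6.35 CPM in dsInR2 libraries 1, 4, 7 and 8, against 30.4, 39.1, 46.1 and 38.2 CPM in dsInR3 libraries 3, 5, 6 and 7, and 50.9, 54.6, 53.8 and 51.9 CPM in dsMock libraries 1, 3, 4 and 5. Every dsInR2 library lay below every dsInR3 library, and every dsInR3 library below every dsMock library. In dsInR2 the level was lower than in dsInR3 (log2 fold change -2.70, SE 0.20, adjusted p = 1.2e-06; p = 0.0286 by a two-sided exact permutation test, which cannot go lower with 4 libraries a side). Against dsMock the log2 fold change was -3.16 in dsInR2 (adjusted p = 3.2e-07) and -0.46 in dsInR3, which did not pass (adjusted p = 0.265; exact permutation p = 0.0286). Depletion of the other receptors could not be checked from this annotation.

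Between dsInR2 and dsInR3, 2411 of the 10536 tested genes differed (22.9%) by edgeR's quasi-likelihood test at an adjusted p under 0.05. Of these, 1224 were higher in dsInR2 (11.6%) and 1187 lower (11.3%), and 569 rose and 571 fell by at least 2-fold (5.4% and 5.42% of tested genes). In 1103 genes all dsInR2 libraries lay above all dsInR3 libraries (10.5%), and in 1203 all lay below (11.4%). The median log2 fold change of all tested genes was 0.07. Against dsMock, dsInR2 had 1851 genes higher (17.6%) and 1551 lower (14.7%), whereas dsInR3 had 21 higher (0.199%) and 11 lower (0.104%); both comparisons use the same dsMock libraries. Without dsInR3 library 3 the direct comparison called 1350 genes higher and 1261 lower, and without dsInR3 library 5 it called 807 higher. Scaled to library totals alone, the median of all genes moved to 0.48 and the split became 2895 higher and 500 lower.

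**Figure D1:**
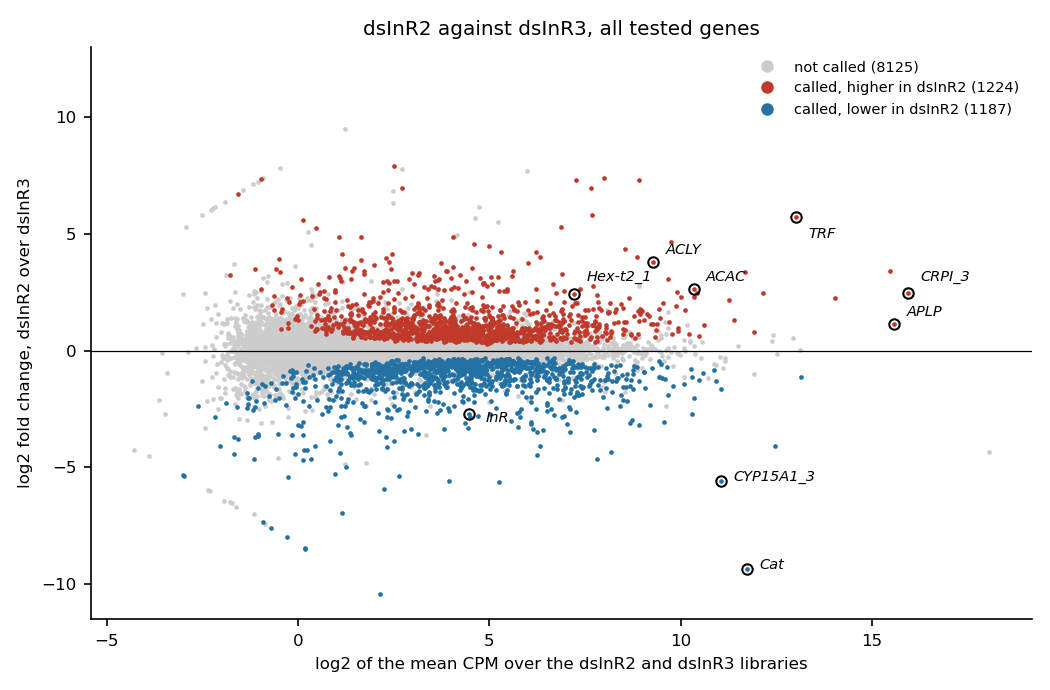
Each point is 1 of the 10536 tested genes, with the log2 of its mean CPM over the dsInR2 and dsInR3 libraries on the horizontal axis and the fitted log2 fold change of dsInR2 over dsInR3 on the vertical axis. Red points (1224) were called higher and blue points (1187) lower in dsInR2, and circled genes are described in the text.

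Few genes were called in opposite directions against dsMock in the 2 treatments. By edgeR this number could not exceed the 32 genes that passed in dsInR3 against dsMock. By edgeR, 2 genes were called in opposite directions against dsMock (0.019% of tested genes), Hex-t2_1 and C0J52_08783. Hex-t2_1 (locus C0J52_18479, contig PYGN01000927.1 from 529615 to 546683) is annotated as a hexokinase type 2, the enzyme that phosphorylates glucose as it enters metabolism. It had 261, 161, 230.0 and 354 CPM in the dsInR2 libraries, 47.3, 37.5, 57.0 and 44.9 CPM in the dsInR3 libraries and 76.8, 110.5, 105 and 147 CPM in the dsMock libraries. The 3 groups did not overlap, with dsInR2 on top and dsInR3 at the bottom. Directly compared, it was higher in dsInR2 than in dsInR3 (log2 fold change 2.43, SE 0.24, adjusted p = 1.5e-05). It rose in dsInR2 against dsMock (log2 fold change 1.195, SE 0.23, adjusted p = 0.00114) and fell in dsInR3 against dsMock (log2 fold change -1.23, SE 0.23, adjusted p = 0.0407). A second hexokinase, Hex-t2_0, had 322 CPM in dsInR2, 144 CPM in dsInR3 and 126 CPM in dsMock, and was higher in dsInR2 than in dsInR3 (log2 fold change 1.16, SE 0.20, adjusted p = 8.4e-04) without a difference between dsInR3 and dsMock that passed.

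C0J52_08783, a protein without a product name (contig PYGN01000312.1 from 125414 to 133714), had 74.8, 56.5, 90.6 and 98.9 CPM in dsInR2, 27.7, 21.8, 23.3 and 26.8 CPM in dsInR3 and 48.0, 55.8, 46.4 and 56.0 CPM in dsMock. Here too the 3 groups did not overlap. The log2 fold change was 1.69 between dsInR2 and dsInR3 (SE 0.17, adjusted p = 1.5e-05), 0.64 for dsInR2 against dsMock (adjusted p = 0.00711) and -1.05 for dsInR3 against dsMock (adjusted p = 0.0177). For both genes the 2 comparisons that involve dsInR2 passed in each of 12 fits that left out 1 library, while dsInR3 against dsMock passed in 4 of 12 fits for Hex-t2_1 (adjusted p 0.026 to 0.14) and in 6 of 12 for C0J52_08783 (0.0122 to 0.0682). Without dsInR3 library 3, 5 or 7, or dsMock library 1, 3 or 5, neither gene kept both calls, and without dsInR2 library 1 or 7 Hex-t2_1 did not. Dropping the filter on low counts, or fitting only the 2 groups, left Hex-t2_1 uncalled for dsInR3 against dsMock (adjusted p = 0.0561 and 0.0747). Under scaling to library totals neither gene passed there (0.0809 for Hex-t2_1 and 0.0913 for C0J52_08783). DESeq2 called 16 genes in opposite directions, among them both of these, ASNS, C1TC, SEC11C and SSR2, and also C0J52_18480, a locus without a product name that follows Hex-t2_1 in the annotation and averaged 21.7 CPM in dsInR2, 3.43 CPM in dsInR3 and 8.18 CPM in dsMock.

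A wider set was described without a test: 94 genes (0.892%) differed between dsInR2 and dsInR3 and lay at least 1.5-fold from dsMock on opposite sides, 56 of them high in dsInR2 (0.532%) and 38 low in dsInR2 (0.361%). The rule itself fixes their direction. Of these, 42 carry an informative product name. At the threshold, SSR2 was the last gene inside, with -0.83 for dsInR2 and 0.58 for dsInR3 against dsMock, and Spase22-23 the first outside, with -0.68 and 0.57. Among those high in dsInR2 were enzymes of one-carbon and purine metabolism, a group picked out after the values were seen. C1TC, the cytosolic C-1-tetrahydrofolate synthase that interconverts folate-bound one-carbon units, had 155, 109.9, 201 and 148 CPM in dsInR2, 42.4, 39.3, 55.6 and 61.3 CPM in dsInR3 and 68.6, 127, 58.8 and 95.3 CPM in dsMock. All dsInR2 libraries lay above all dsInR3 libraries, and 1 dsMock library lay within the range of each treatment (log2 fold change 1.63, SE 0.25, adjusted p = 3.2e-04 for dsInR2 against dsInR3). MTHFD2, its mitochondrial counterpart, averaged 48.3 CPM in dsInR2, 5.67 CPM in dsInR3 and 22.0 CPM in dsMock. Against dsMock it passed in neither treatment (adjusted p = 0.291 for dsInR2 and 0.265 for dsInR3). Between dsInR2 and dsInR3 it did not pass without dsInR2 library 8 or dsInR3 library 5 (adjusted p = 0.0537 and 0.0506). Its log2 fold change of 3.11 became 2.33 without that dsInR2 library and 3.87 without dsInR3 library 6. GART, which catalyses 3 steps of purine synthesis, averaged 323 CPM in dsInR2, 94.3 CPM in dsInR3 and 151 CPM in dsMock (log2 fold change 1.78, SE 0.24, adjusted p = 1.3e-04). XDH_0, the xanthine dehydrogenase that forms urate, averaged 201 CPM in dsInR2, 71.9 CPM in dsInR3 and 121 CPM in dsMock (log2 fold change 1.48, SE 0.34, adjusted p = 0.00553).

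One of those low in dsInR2, ASNS, is the asparagine synthetase that makes asparagine from aspartate and glutamine. It had 50.2, 68.6, 84.8 and 32.2 CPM in dsInR2, 229, 282, 231 and 208 CPM in dsInR3 and 92.1, 120.4, 107 and 89.4 CPM in dsMock. The groups did not overlap, with dsInR3 on top and dsInR2 at the bottom (log2 fold change -2.01, SE 0.27, adjusted p = 1.4e-04 for dsInR2 against dsInR3). Against dsMock it fell in dsInR2 (-0.79, adjusted p = 0.0321), and in dsInR3 its log2 fold change of 1.22 did not pass (adjusted p = 0.0556). The first of these calls held in 8 of 12 fits that left out 1 library and the second was made in 1 of 12. Hsc70-3, the BiP chaperone that folds proteins in the endoplasmic reticulum, had 519, 341, 518 and 487 CPM in dsInR2, 1149.9, 1507, 1203 and 1405 CPM in dsInR3 and 574, 1127, 913 and 765 CPM in dsMock. Every dsInR3 library lay above every dsInR2 library (log2 fold change -1.50, SE 0.26, adjusted p = 9.6e-04), while the difference between dsInR3 and dsMock did not pass (log2 fold change 0.64, adjusted p = 0.255). SIL1, a nucleotide exchange factor of BiP, averaged 12.98 CPM in dsInR2, 42.2 CPM in dsInR3 and 20.1 CPM in dsMock (log2 fold change -1.70, SE 0.52, adjusted p = 0.0279). IDH2, the NADP-dependent isocitrate dehydrogenase, averaged 84.6 CPM in dsInR2, 243 CPM in dsInR3 and 155 CPM in dsMock (log2 fold change -1.52, SE 0.30, adjusted p = 0.00216). ASNS, C1TC, GART, XDH_0 and SIL1 were chosen after their values were seen.

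Ranked by the smaller of their 2 changes against dsMock, the first 10 genes with a product name were Hex-t2_1, MTHFD2 and 8 further ones, mostly of low level. Only Hex-t2_1 among them passed for dsInR3 against dsMock. For dsInR2 against dsMock, MTHFD2, ITIH4_1, CYP9E2_7, C09D4.1_2 and PRDX6_0 did not pass (adjusted p 0.06 to 0.422). Tret1_13, a facilitated trehalose transporter, had 3.73, 3.53, 10.3 and 6.35 CPM in dsInR2, against 0.0818, 0, 0.223 and 0.512 CPM in dsInR3 and 0.548, 1.19, 0.562 and 1.17 CPM in dsMock, so every dsInR2 library lay above the other groups' libraries. ANPEP_1, an aminopeptidase N, averaged 5.86 CPM in dsInR2, 0.378 CPM in dsInR3 and 1.15 CPM in dsMock. RDH11, a retinol dehydrogenase, averaged 10.3 CPM in dsInR2, 0.595 CPM in dsInR3 and 1.71 CPM in dsMock. Both were higher in dsInR2 than in dsInR3, by 3.89 and 4.14 on the log2 scale. CYP9E2_7, a cytochrome P450 of the detoxifying family, averaged 21.3 CPM in dsInR2, 2.27 CPM in dsInR3 and 8.61 CPM in dsMock, with overlap between dsInR2 and dsInR3 libraries. C09D4.1_2, a putative transporter, averaged 1.56 CPM in dsInR2, 0.224 CPM in dsInR3 and 0.552 CPM in dsMock. PRDX6_0, a peroxiredoxin, averaged 30.6 CPM in dsInR2, 2.53 CPM in dsInR3 and 14.4 CPM in dsMock. Its dsInR2 libraries had 90.6, 5.93, 22.4 and 3.39 CPM, and the last lay below dsInR3 library 3 at 4.66 CPM. The PRDX6_0 call was lost without dsInR2 library 1 (adjusted p = 0.129) or dsInR3 library 5, 6 or 7 (0.0709, 0.0699 and 0.0718). ITIH4_1, an inter-alpha-trypsin inhibitor heavy chain, averaged 43.1 CPM in dsInR2, 3.71 CPM in dsInR3 and 10.6 CPM in dsMock. The groups overlapped here too: dsInR2 library 4, at 1.099 CPM, lay below every dsInR3 library, the lowest of which had 2.01 CPM. The ITIH4_1 call was lost without dsInR2 library 8 (adjusted p = 0.0633) or dsInR3 library 6 or 7 (0.063 and 0.06). By limma-voom ITIH4_1 was not called (adjusted p = 0.18), nor were PRDX6_0 (0.141), Tret1_13 (0.0588) and CYP9E2_7 (0.0537). GstD1_3, 1 of several glutathione S-transferase copies among which the division of reads is uncertain, had no read in any dsInR2 library, which makes it at least 59.7-fold lower there than in dsInR3, taking 3 counts per group as the floor. Its dsInR3 libraries had 3.76, 0, 1.19 and 1.54 CPM, so library 5 was at 0 too; without dsInR3 library 3 the bound was 29.0-fold, and limma-voom did not call the gene (adjusted p = 0.28). Leaving out 1 library also moved other folds of these genes by over 1.5 times. Without dsInR2 library 8 the log2 fold change was 2.79 for ITIH4_1. Without dsInR2 library 1 it was 2.46 for CYP9E2_7 and 2.04 for PRDX6_0, and without dsInR3 library 7 it was 5.98 for Tret1_13 and 4.63 for ANPEP_1.

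**Figure D2:**
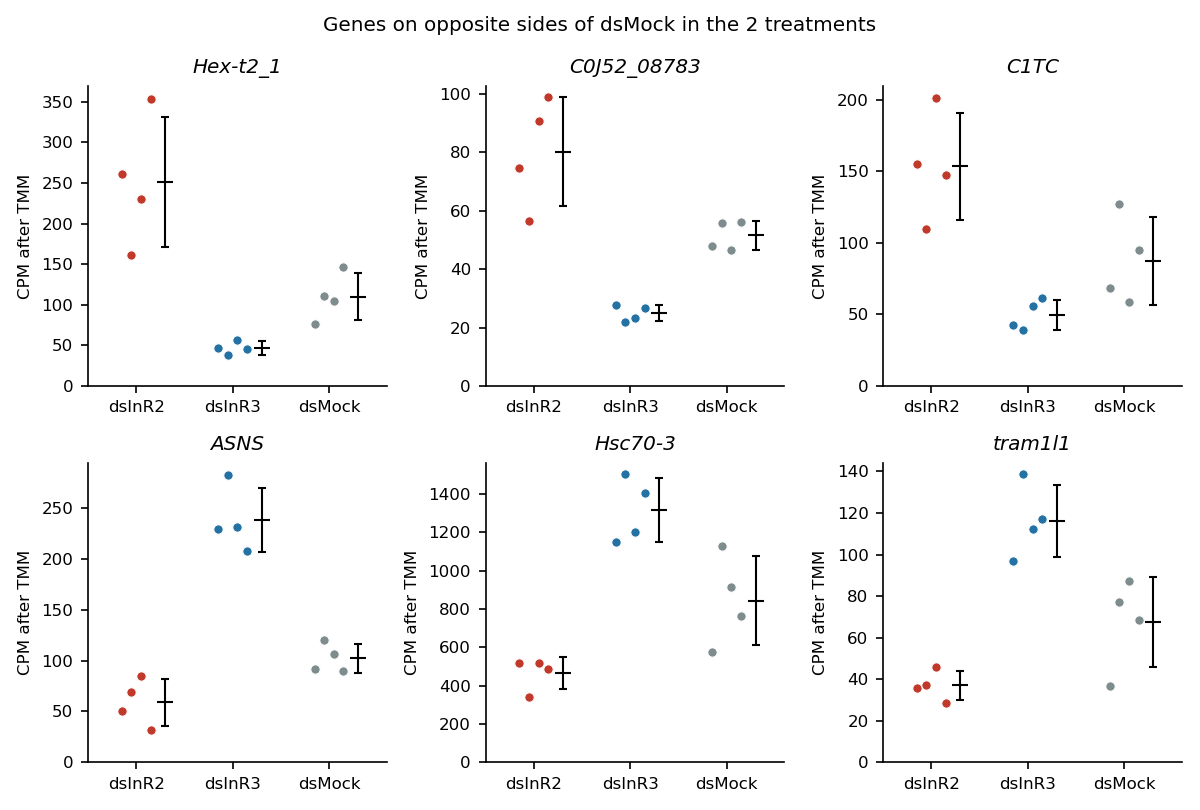
Each panel shows 1 gene, with CPM on a linear vertical axis starting at 0, 1 point per library, and the mean ± SD (n = 4) beside it, for dsInR2, dsInR3 and dsMock from left to right. In Hex-t2_1, C0J52_08783 and C1TC dsInR2 was highest and dsInR3 lowest on average, and in ASNS, Hsc70-3 and tram1l1 the order was the other way round.

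Most genes for export through the endoplasmic reticulum were lower in dsInR2 than in dsInR3. Of 46 tested, 34 fell (73.9%, beside 11.3% of all tested genes) and 1 rose, with a median log2 fold change of -0.87. Against dsMock, 26 fell and 2 rose in dsInR2 (56.5% and 4.35%, beside 14.7% lower and 17.6% higher of all tested genes; median -0.60). In dsInR3 none passed in either direction by edgeR (median 0.39), beside 0.199% higher and 0.104% lower of all tested genes. In that comparison 21 of the 46, all higher in dsInR3, had an unadjusted p under 0.05, beside 1546 of all 10536 tested genes (14.7%). DESeq2 called 6 of the 46 higher, beside 294 of all 10536 tested genes. Both comparisons share the dsMock libraries. SEC61B, the beta subunit of the Sec61 channel, had 30.8, 27.5, 32.1 and 42.4 CPM in dsInR2, 116, 124, 111 and 106 CPM in dsInR3 and 73.9, 85.8, 83.4 and 66.0 CPM in dsMock, so the lowest dsInR3 library lay above the highest dsInR2 library (log2 fold change -1.79, SE 0.20, adjusted p = 3.3e-05). Srpra, the signal recognition particle receptor that brings nascent chains to the channel, fell too (-1.27), as did the translocon-associated proteins SSR1, SSR2 and SSR3, which assist translocation. Of these SSR3, the gamma subunit, averaged 100.2 CPM in dsInR2, 286 CPM in dsInR3 and 236 CPM in dsMock (log2 fold change -1.51, SE 0.17, adjusted p = 3.3e-05). Serp2, a small membrane protein of the translocon, had 143, 112, 134 and 195 CPM in dsInR2, against 533, 506, 624 and 501 CPM in dsInR3 and 646, 479.8, 684 and 590.5 CPM in dsMock. Its dsInR2 libraries all lay below the others (log2 fold change -1.89, SE 0.18, adjusted p = 1.4e-05 for dsInR2 against dsInR3), and the difference between dsInR3 and dsMock did not pass (log2 fold change -0.15).

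Further along this path, SEC11C, the catalytic subunit of signal peptidase, averaged 77.5 CPM in dsInR2, 221 CPM in dsInR3 and 143 CPM in dsMock. tram1l1, a translocating chain-associated membrane protein, averaged 37.0 CPM in dsInR2, 116 CPM in dsInR3 and 67.5 CPM in dsMock. Among the folding enzymes, Hsp90b1 (endoplasmin) averaged 264 CPM in dsInR2, 802 CPM in dsInR3 and 554 CPM in dsMock (log2 fold change -1.60, SE 0.31, adjusted p = 0.00206), and crt (calreticulin) 1119.9 CPM in dsInR2, 2757 CPM in dsInR3 and 1882 CPM in dsMock (log2 fold change -1.30, SE 0.22, adjusted p = 8.1e-04). The protein disulfide isomerases Pdi and PDIA3 had log2 fold changes of -1.27 and -1.19, with Pdi at 842 CPM in dsInR2 against 2027 CPM in dsInR3, and PDIA3 at 444 CPM in dsInR2 against 1011 CPM in dsInR3. Of the coatomer subunits, which coat vesicles between Golgi and endoplasmic reticulum, COPA_1 (-1.14) and ARCN1 (-0.74) were among those that fell. The member that rose was Man1b1, a mannosidase that trims glycans in this compartment (0.81, 328 CPM in dsInR2 against 187 CPM in dsInR3). Erlec1, a lectin, fell to 66.2 CPM in dsInR2, against 245 CPM in dsInR3 and 224 CPM in dsMock. Canx (calnexin), Srp68 and SRP14 did not pass, with log2 fold changes of -0.14, 0.06 and 0.09. Leaving out 1 library gave 32 to 37 members lower, and scaling to library totals, which moved the median of all genes to 0.48, gave 21 lower and 3 higher.

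**Figure D3:**
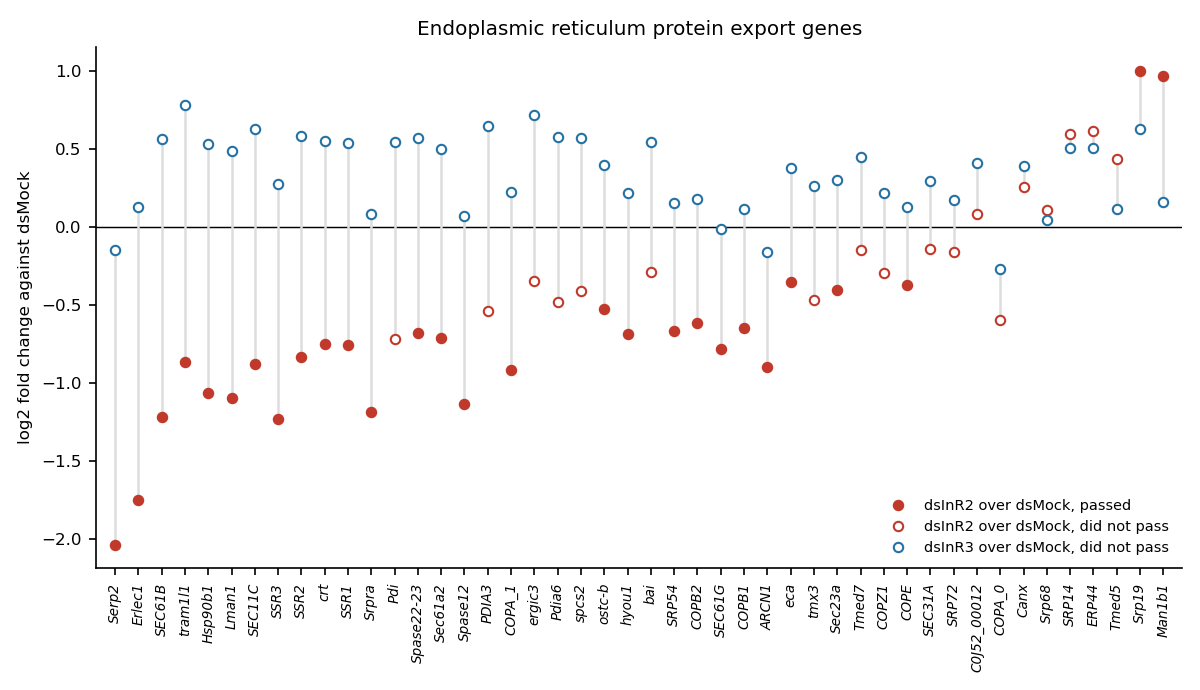
Each column is 1 of the 46 tested genes of endoplasmic reticulum export, with the log2 fold change against dsMock on the vertical axis for dsInR2 (red) and dsInR3 (blue), joined by a line. Filled points passed at an adjusted p under 0.05 and open points did not, so that every dsInR3 point is open.

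The aminoacyl-tRNA synthetases, which charge amino acids onto tRNAs, had 8 of 32 tested members lower in dsInR2 (25%, beside 11.3% of all tested genes) and 2 higher (6.25%, beside 11.6%), with a median log2 fold change of 0.00. NARS, which charges asparagine, averaged 139.5 CPM in dsInR2, 334 CPM in dsInR3 and 263 CPM in dsMock (log2 fold change -1.26, SE 0.16, adjusted p = 1.0e-04). SARS, for serine, averaged 36.7 CPM in dsInR2, 81.3 CPM in dsInR3 and 63.0 CPM in dsMock (log2 fold change -1.15, SE 0.19, adjusted p = 5.9e-04). EPRS, which charges glutamate and proline, had 13.6 CPM in dsInR2, 25.7 CPM in dsInR3 and 25.2 CPM in dsMock. The proteasome, which degrades tagged proteins, had 9 of 33 members lower (27.3%) and none higher, with a median of -0.32 that turned to 0.08, with 1 lower and 1 higher, when libraries were scaled to their totals. Rpn7, a subunit of its regulatory particle, averaged 6.93 CPM in dsInR2, 13.1 CPM in dsInR3 and 10.6 CPM in dsMock (log2 fold change -0.92, SE 0.17, adjusted p = 0.00117). The heat shock proteins and chaperonins went the other way, with 10 of 21 higher (47.6%) and 1, Hsc70-3, lower (4.76%; median 0.41). Hsp60, the mitochondrial chaperonin, had 400.3, 628, 412 and 253 CPM in dsInR2, 240.4, 102, 77.5 and 126 CPM in dsInR3 and 46.6, 69.1, 56.9 and 47.6 CPM in dsMock. The dsInR2 values lay above all dsInR3 values (log2 fold change 1.63, SE 0.33, adjusted p = 0.00236). Trap1_0, the mitochondrial Hsp90, averaged 45.2 CPM in dsInR2, 28.7 CPM in dsInR3 and 18.6 CPM in dsMock.

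Most genes for proteins secreted into the hemolymph were higher in dsInR2. Of 12 tested genes of this list 8 rose (66.7%) and none fell, beside 11.6% higher and 11.3% lower of all tested genes. Their median log2 fold change was 1.69, and leaving out 1 library gave 7 to 8 higher and 0 to 2 lower. TRF, the iron carrier transferrin, had 28838, 712, 7010.2 and 27904 CPM in dsInR2 libraries 1, 4, 7 and 8, 336, 260.2, 218 and 400.0 CPM in dsInR3 libraries 3, 5, 6 and 7 and 390.1, 282, 553 and 994 CPM in dsMock libraries 1, 3, 4 and 5. All dsInR2 libraries exceeded all dsInR3 libraries, although library 4 of dsInR2 lay far below the other dsInR2 libraries (log2 fold change 5.73, SE 1.05, adjusted p = 0.00134). The Cr-PI allergens, hemolymph storage proteins of the hexamerin family in cockroaches, are annotated as several near-identical copies, so the split of reads among them is uncertain. CRPI_3 had 118005, 87819, 134066 and 85337 CPM in dsInR2, 30043, 13958, 15212 and 17612 CPM in dsInR3 and 16916, 14754, 17958 and 16079 CPM in dsMock, with no overlap between dsInR2 and dsInR3 (log2 fold change 2.47, SE 0.32, adjusted p = 1.1e-04). CRPI_2 had 101225, 63333, 116591 and 47328 CPM in dsInR2, against 15598, 5870.3, 4192 and 5727 CPM in dsInR3 and 2870.1, 3964, 5173 and 3227 CPM in dsMock (log2 fold change 3.39, SE 0.47, adjusted p = 1.7e-04). In dsInR3, library 3 had the highest level of the group. CRPI_1 and CRPI_4 rose by 3.36 and 2.26 on the log2 scale, while CRPI_0 did not pass (1492 CPM in dsInR2 against 2218 CPM in dsInR3, adjusted p = 0.445). APLP, the lipid carrier apolipophorin, averaged 66495 ± 7857 CPM in dsInR2, 30364 ± 2837 CPM in dsInR3 and 29390.1 ± 6631 CPM in dsMock (SD, n = 4 each, log2 fold change 1.13, SE 0.26, adjusted p = 0.00543). The edgeR fit on only dsInR2 and dsInR3 did not call APLP (log2 fold change 1.09, adjusted p = 0.0962). FERH, a ferritin subunit that stores iron, averaged 1236 CPM in dsInR2, 693 CPM in dsInR3 and 852 CPM in dsMock (log2 fold change 0.83, SE 0.20, adjusted p = 0.00862). HEXA, the other storage protein of the list, averaged 44.4 CPM in dsInR2, 193 CPM in dsInR3 and 225 CPM in dsMock and did not pass (adjusted p = 0.0513).

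Several enzymes that make fatty acids from sugar carbon were higher in dsInR2. Of 30 tested genes of fatty acid synthesis and NADPH supply, 7 rose (23.3%, beside 11.6% of all tested genes) and 2 fell (6.67%, beside 11.3%; median 0.27); leaving out dsInR2 library 8 gave 12 higher. ACLY, the ATP-citrate synthase that supplies acetyl-CoA, had 2914, 1089, 399 and 209 CPM in dsInR2, 131, 74.3, 73.6 and 57.8 CPM in dsInR3 and 29.7, 41.7, 49.2 and 41.9 CPM in dsMock. The 4 dsInR2 values lay above all the others (log2 fold change 3.78, SE 0.62, adjusted p = 6.1e-04), and without dsInR2 library 1 the log2 fold change was 2.75. ACAC, the acetyl-CoA carboxylase that commits acetyl-CoA to fat, had 4405, 1350.2, 1859 and 1269 CPM in dsInR2, 528, 232, 474 and 211 CPM in dsInR3 and 124, 172, 164 and 224 CPM in dsMock (log2 fold change 2.62, SE 0.52, adjusted p = 0.00218). Fasn, the fatty acid synthase itself, averaged 4001 CPM in dsInR2, 884 CPM in dsInR3 and 499 CPM in dsMock (log2 fold change 2.18, SE 0.53, adjusted p = 0.00786). NADPH for these steps comes from the pentose phosphate pathway, of which ZW, the glucose-6-phosphate dehydrogenase, averaged 155 CPM in dsInR2, 37.3 CPM in dsInR3 and 18.1 CPM in dsMock (log2 fold change 2.06, SE 0.43, adjusted p = 0.00308). TKTL1, a transketolase-like protein, averaged 781 CPM in dsInR2, 241 CPM in dsInR3 and 84.0 CPM in dsMock and was also higher in dsInR3 than in dsMock (1.52, SE 0.26, adjusted p = 0.0306). The 2 members that fell were Pgls, the 6-phosphogluconolactonase of the same pathway (-1.04), and the desaturase ACO11_4, which had no read in dsInR2.

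**Figure D4:**
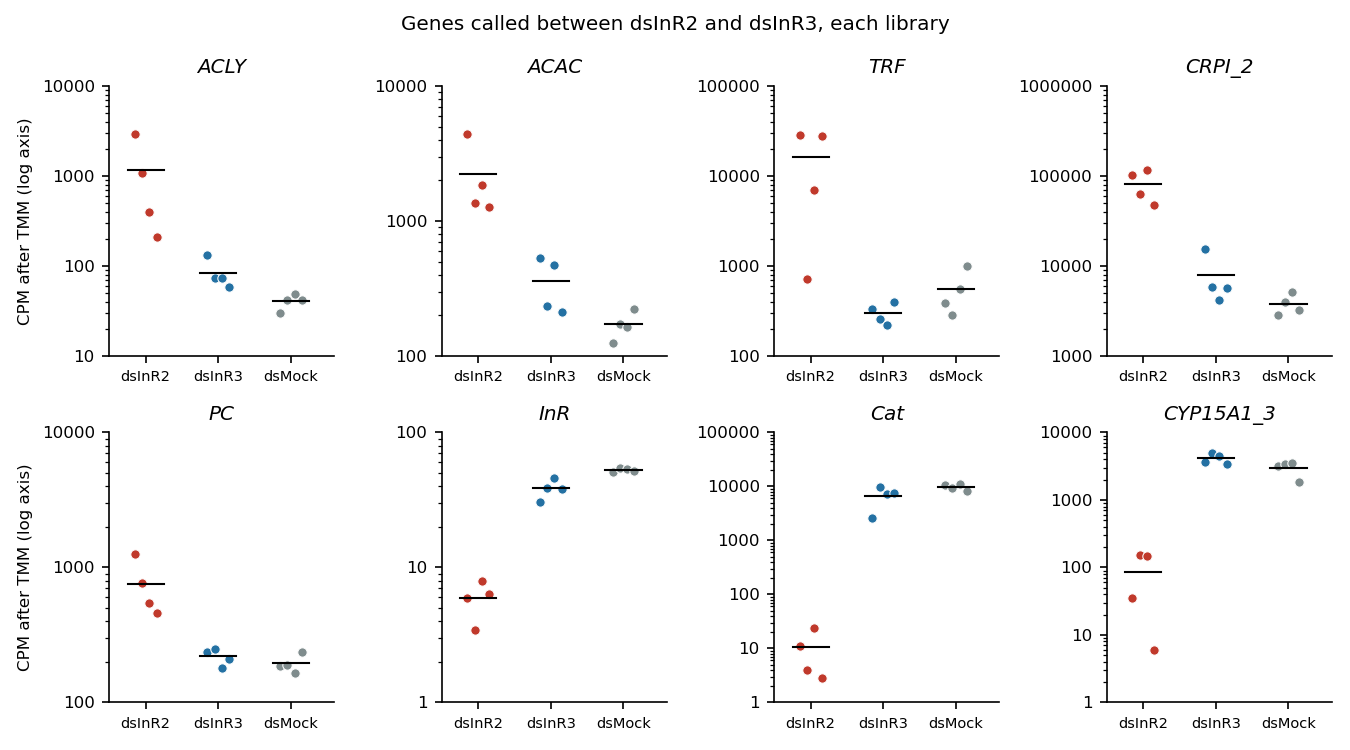
Each panel shows 1 gene, with CPM on a log vertical axis, 1 point per library and a line at the mean of the 4, for dsInR2, dsInR3 and dsMock from left to right. ACLY, ACAC, TRF, CRPI_2 and PC lay higher in all dsInR2 libraries than in all dsInR3 libraries, and InR, Cat and CYP15A1_3 lower.

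Of 15 tested genes of triacylglycerol and phospholipid synthesis, 2 fell, DGAT1 and Gpdh (13.3%, near the 11.3% of all tested genes), and none rose. Without dsInR2 library 7 or 8 1 rose, and under scaling to library totals 2 rose and 1 fell. DGAT1, which adds the last fatty acid to triacylglycerol, averaged 53.5 CPM in dsInR2, 118 CPM in dsInR3 and 109.7 CPM in dsMock (log2 fold change -1.15, SE 0.23, adjusted p = 0.00246). Gpdh, the glycerol-3-phosphate dehydrogenase that supplies the glycerol backbone, averaged 101 CPM in dsInR2, 191 CPM in dsInR3 and 163 CPM in dsMock (log2 fold change -0.91, SE 0.24, adjusted p = 0.0136). Among 48 tested genes of fatty acid oxidation and the peroxisome, 15 fell and 2 rose (31.2% and 4.17%, beside 11.3% and 11.6% of all tested genes, median -0.35). That median became 0.04 under scaling to library totals, against 0.48 for all genes. Hadh, a hydroxyacyl-coenzyme A dehydrogenase of the mitochondrial spiral, had 0.957, 1.30, 1.60 and 0.750 CPM in dsInR2, 12.9, 8.38, 16.4 and 12.6 CPM in dsInR3 and 18.3, 16.9, 15.1 and 12.5 CPM in dsMock, with dsInR2 below all other libraries (log2 fold change -3.44, SE 0.25, adjusted p = 1.1e-06). Echs1_0, an enoyl-CoA hydratase, averaged 0.533 CPM in dsInR2, 9.49 CPM in dsInR3 and 11.4 CPM in dsMock. Acad9, an acyl-CoA dehydrogenase family member, averaged 31.0 CPM in dsInR2, 85.6 CPM in dsInR3 and 71.1 CPM in dsMock (log2 fold change -1.47, SE 0.19, adjusted p = 1.1e-04). Lipases, which release fatty acids, had 1 of 11 tested members lower (9.09%, near the 11.3% of all tested genes) and none higher. This was Lip1_1 (16.5 CPM in dsInR2 against 35.4 CPM in dsInR3). Its call was lost without dsInR2 library 1, 4 or 7, dsInR3 library 5, 6 or 7, or dsMock library 3 or 5 (adjusted p 0.0605 to 0.129).

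Most glycolytic genes were higher in dsInR2. Of 13 tested, 11 rose (84.6%, beside 11.6% of all tested genes) and none fell, with a median log2 fold change of 1.101; against dsMock, 12 rose in dsInR2 (92.3%, beside 17.6% of all tested genes; median 1.44). In dsInR3 against dsMock 1, Hex-t2_1, fell, beside 0.104% of all tested genes, and none rose by edgeR (median 0.56). In that comparison 8 of the 13 had an unadjusted p under 0.05, 7 of them higher, beside 14.7% of all tested genes in either direction. DESeq2 called 4 higher, beside 294 of all 10536 tested genes. Pgi, the glucose-6-phosphate isomerase that follows hexokinase, had 304, 221, 237 and 228 CPM in dsInR2, 128, 117, 92.4 and 124 CPM in dsInR3 and 65.5, 72.4, 84.0 and 67.8 CPM in dsMock. The dsInR2 values lay above all others (log2 fold change 1.101, SE 0.14, adjusted p = 8.5e-05). ENO_1, the enolase near the end of the pathway, averaged 474 CPM in dsInR2, 149.9 CPM in dsInR3 and 95.6 CPM in dsMock (log2 fold change 1.66, SE 0.26, adjusted p = 3.7e-04). Pgk, the phosphoglycerate kinase, averaged 308 CPM in dsInR2, 128 CPM in dsInR3 and 66.9 CPM in dsMock (log2 fold change 1.27, SE 0.24, adjusted p = 0.00174). PyK_0, the pyruvate kinase, had 1382 CPM in dsInR2, 1054 CPM in dsInR3 and 679 CPM in dsMock and did not pass (adjusted p = 0.406). Leaving out 1 library gave 8 to 11 members higher, the lowest without dsInR2 library 1 or dsInR3 library 5 or 6.

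Of 11 tested genes of gluconeogenesis, glycogen and trehalose, 6 rose (54.5%) and none fell (median 0.75), beside 11.6% higher and 11.3% lower of all tested genes. PC, the pyruvate carboxylase that refills oxaloacetate, had 1252, 763, 543 and 457 CPM in dsInR2, 238, 249, 179.8 and 209 CPM in dsInR3 and 186, 189, 165 and 238 CPM in dsMock, with dsInR2 above all others (log2 fold change 1.78, SE 0.27, adjusted p = 3.1e-04). GlyP, the glycogen phosphorylase that breaks glycogen down, averaged 125 CPM in dsInR2, 62.7 CPM in dsInR3 and 36.6 CPM in dsMock (log2 fold change 0.99, SE 0.20, adjusted p = 0.0026), and the glycogen synthases GlyS_0 and GlyS_1 rose by 1.41 and 1.41 on the log2 scale. tpsA, which makes trehalose phosphate, averaged 43.6 CPM in dsInR2, 25.7 CPM in dsInR3 and 24.5 CPM in dsMock (log2 fold change 0.76, SE 0.13, adjusted p = 9.3e-04). Pepck, the phosphoenolpyruvate carboxykinase of gluconeogenesis, averaged 80.7 CPM in dsInR2, 190.5 CPM in dsInR3 and 873 CPM in dsMock and did not pass between dsInR2 and dsInR3 (adjusted p = 0.193). Sugar and trehalose transporters had 1 of 13 tested members higher, Tret1_13, and 2 lower, Tret1_2 and Tret1_11. Those shares were 7.69% and 15.4%, beside 11.6% and 11.3% of all tested genes. Tret1_2 averaged 22.0 CPM in dsInR2, 61.4 CPM in dsInR3 and 128 CPM in dsMock (log2 fold change -1.48, SE 0.30, adjusted p = 0.00247), with a spread that overlapped. Tret1_11 averaged 248 CPM in dsInR2, 589 CPM in dsInR3 and 882 CPM in dsMock, and its call was lost without dsInR2 library 1, 4 or 8 (adjusted p = 0.0711, 0.0807 and 0.052) or dsInR3 library 5 or 6 (0.0831 and 0.105).

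The lists of the citric acid cycle, respiration and the mitochondrial ribosome had more members higher than lower in dsInR2. Of 31 tested genes of the citric acid cycle and pyruvate entry, 12 rose (38.7%) and 2 fell (6.45%; median 0.32), beside 11.6% higher and 11.3% lower of all tested genes. Of 47 of oxidative phosphorylation 18 rose (38.3%) and none fell (median 0.48), and of 46 mitochondrial ribosomal proteins 12 rose (26.1%) and none fell (median 0.40). sdha, the flavoprotein of succinate dehydrogenase, had 220.0, 159, 164 and 155 CPM in dsInR2, 91.6, 64.2, 51.5 and 67.8 CPM in dsInR3 and 44.1, 32.5, 41.3 and 46.6 CPM in dsMock, with no overlap between dsInR2 and dsInR3 (log2 fold change 1.34, SE 0.19, adjusted p = 2.3e-04). MDH2_2, a malate dehydrogenase, averaged 535 CPM in dsInR2, 227 CPM in dsInR3 and 206 CPM in dsMock (log2 fold change 1.24, SE 0.21, adjusted p = 8.1e-04). AT5G, the lipid-binding ring subunit of ATP synthase, averaged 1284 CPM in dsInR2, 665 CPM in dsInR3 and 564 CPM in dsMock. NDUFA12, a subunit of complex I, averaged 23.9 CPM in dsInR2, 14.0 CPM in dsInR3 and 10.8 CPM in dsMock. DAP3, a protein of the small mitochondrial ribosomal subunit, averaged 26.7 CPM in dsInR2, 13.9 CPM in dsInR3 and 8.53 CPM in dsMock (log2 fold change 0.93, SE 0.19, adjusted p = 0.0031). These counts depended on single libraries: oxidative phosphorylation had 10 members higher without dsInR3 library 5 or 6, 11 without dsInR3 library 7 and up to 25 otherwise, and mitochondrial ribosomal proteins had 3 without dsInR3 library 6, 4 without dsInR2 library 4, 5 without dsInR3 library 5 or 7 and up to 20. The citric acid cycle had 8 higher without dsInR2 library 1 or dsInR3 library 5 or 6.

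The cytosolic ribosome showed a share of calls below the background. Of 75 tested ribosomal proteins, 4 rose and 4 fell (5.33% each, beside 11.6% and 11.3% of all tested genes, median 0.16). RPL4, of the large subunit, averaged 209.6 CPM in dsInR2, 607 CPM in dsInR3 and 579 CPM in dsMock and fell (log2 fold change -1.54, SE 0.33, adjusted p = 0.00371). These counts also depended on single libraries: 14 rose without dsInR3 library 3, 12 without dsInR2 library 7, 1 without dsInR2 library 4 or 8 or dsInR3 library 7, and none without dsInR3 library 5 or 6. Of 32 ribosome biogenesis genes, 4 rose (12.5%, near the background) and none fell (median 0.45), and without dsInR2 library 4 the number that rose was 2. They included NOP58, a nucleolar protein, at 23.1 CPM in dsInR2, 9.76 CPM in dsInR3 and 4.73 CPM in dsMock, whose call was lost without dsInR2 library 4 (adjusted p = 0.0509). Translation factors had 2 higher and 2 lower of 35 (5.71% each, median 0.04). Among them were EF1B2, an elongation factor, at 54.3 CPM in dsInR2 against 79.3 CPM in dsInR3, and GSPT1, a release factor, at 63.4 CPM in dsInR2 against 85.7 CPM in dsInR3. Scaled to library totals, both lost their call (log2 fold change -0.15 and -0.01, adjusted p = 0.604 and 0.958).

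Of 23 tested genes of insulin and TOR signalling, InR and 3 further genes fell (17.4%, beside 11.3% of all tested genes) and 1 rose (4.35%, beside 11.6%; median -0.05), and scaling to library totals gave 8 higher and 1 lower with a median of 0.39. Rraga, a GTPase that reports amino acids to TOR, had 18.3, 19.4, 27.2 and 16.9 CPM in dsInR2, 29.3, 33.0, 32.4 and 35.1 CPM in dsInR3 and 37.9, 30.7, 27.3 and 39.2 CPM in dsMock, with no overlap between dsInR2 and dsInR3 (log2 fold change -0.67, SE 0.16, adjusted p = 0.00736). pik3c3, a lipid kinase of vesicle traffic and autophagy, averaged 16.4 CPM in dsInR2, 21.8 CPM in dsInR3 and 23.0 CPM in dsMock (log2 fold change -0.41, SE 0.12, adjusted p = 0.0288). Leaving out dsInR2 library 4 or 8, or dsInR3 library 5 or 7, ended this call (adjusted p = 0.0787, 0.0535, 0.078 and 0.074). IGFBP, a protein related to binding proteins of insulin-like growth factors, averaged 244 CPM in dsInR2, 385 CPM in dsInR3 and 619.6 CPM in dsMock (log2 fold change -0.66, SE 0.22, adjusted p = 0.0469), and did not pass in fits without dsInR2 library 4 or 8, dsInR3 library 5, 6 or 7, or dsMock library 3, 4 or 5 (adjusted p 0.0575 to 0.169). Igfals, a protein of the same binding complex, averaged 244 CPM in dsInR2, 192 CPM in dsInR3 and 219.8 CPM in dsMock (log2 fold change 0.35, SE 0.12, adjusted p = 0.0481), a call kept among the leave-one-out fits only without dsInR2 library 4 (adjusted p 0.0574 to 0.114 in the other 11). The transcription factor foxo_1 averaged 73.4 CPM in dsInR2, 71.5 CPM in dsInR3 and 110.4 CPM in dsMock and did not pass (adjusted p = 0.891), nor did Eif4ebp1, the translation repressor that TOR controls (68.9 CPM in dsInR2, 39.3 CPM in dsInR3, adjusted p = 0.0928), or Mtor_1 (53.4 CPM in dsInR2, 47.1 CPM in dsInR3).

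Hormone genes were split. CYP15A1_3, the methyl farnesoate epoxidase that in cockroaches makes juvenile hormone in the corpora allata and is here measured in fat body, had 35.0, 151, 149.9 and 6.07 CPM in dsInR2, 3617, 4905, 4558 and 3459 CPM in dsInR3 and 3173, 3384, 3592 and 1846 CPM in dsMock. dsInR2 lay far below every library of the other groups (log2 fold change -5.59, SE 0.79, adjusted p = 1.8e-04). This gene belongs to a large cytochrome P450 family, so the division of reads among its members is uncertain. In all, 5 of 21 tested juvenile hormone genes fell and 2 rose (23.8% and 9.52%, beside 11.3% and 11.6% of all tested genes). That balance turned to 6 higher and 1 lower under scaling to library totals. The mevalonate pathway enzymes MVD (-1.15) and IDI1 (-0.64) were among those that fell. Without dsInR2 library 4, 3 fell and none rose. Of 9 genes of the ecdysteroid pathway and nuclear receptors, 2 rose, Eip74EF and Hr96 (22.2%, beside 11.6% of all tested genes). In the same list 1 fell, Hr78 (11.1%, near the 11.3% of all tested genes). Eip74EF, an ecdysone-induced transcription factor, averaged 8.59 CPM in dsInR2, 3.56 CPM in dsInR3 and 3.92 CPM in dsMock, and its call was lost without dsInR2 library 4 or dsInR3 library 5 (adjusted p = 0.0536 and 0.0524). The nuclear receptor Hr96 (0.79) kept its call among the leave-one-out fits only without dsInR2 library 8 (adjusted p 0.0559 to 0.136 in the other 11), and Hr78 (-0.70) lost it without dsInR3 library 5 or 7 (0.0525 and 0.0519).

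Among genes of at least 10 CPM on average over dsInR2 and dsInR3, the largest fitted fold change was that of Cat. Cat, the catalase that breaks down hydrogen peroxide, had 11.3, 3.97, 23.96 and 2.89 CPM in dsInR2, 2644, 9813, 7159 and 7611 CPM in dsInR3 and 10693, 9238, 11061 and 8077 CPM in dsMock. The dsInR2 values lay far below those of the other groups (log2 fold change -9.34, SE 0.76, adjusted p = 2.5e-06), and without dsInR2 library 7 the log2 fold change was -10.14. Of 30 tested redox enzymes 9 rose (30.0%) and 3 fell (10%; median 0.28): Gclc, which makes the first product of glutathione synthesis, averaged 23.9 CPM in dsInR2, 8.50 CPM in dsInR3 and 7.90 CPM in dsMock (log2 fold change 1.49, SE 0.21, adjusted p = 1.8e-04), and prtp, a thioredoxin-domain protein, averaged 18.5 CPM in dsInR2, 34.4 CPM in dsInR3 and 33.1 CPM in dsMock. Among 66 detoxification enzymes, 9 rose and 8 fell (13.6% and 12.1%, close to the 11.6% and 11.3% of all tested genes). GstD1_1, a glutathione S-transferase, averaged 151 CPM in dsInR2, 9.40 CPM in dsInR3 and 3.35 CPM in dsMock with 34.3, 42.4, 465 and 63.7 CPM in the dsInR2 libraries; without dsInR2 library 7 its log2 fold change of 4.00 became 2.31. EST6_0, a carboxylesterase, averaged 48.1 CPM in dsInR2, 12.6 CPM in dsInR3 and 7.86 CPM in dsMock (log2 fold change 1.93, SE 0.36, adjusted p = 0.00158). GstD1_7 averaged 114 CPM in dsInR2, 36.2 CPM in dsInR3 and 15.6 CPM in dsMock (log2 fold change 1.66, SE 0.26, adjusted p = 4.4e-04). Cpr, the reductase that supplies electrons to cytochrome P450 enzymes, averaged 96.4 CPM in dsInR2, 181 CPM in dsInR3 and 189 CPM in dsMock (log2 fold change -0.91, SE 0.16, adjusted p = 0.00121).

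Of 36 tested immune genes, 3 rose and 5 fell (8.33% and 13.9%, near the 11.6% and 11.3% of all tested genes), and scaling to library totals gave 11 higher and 1 lower. PGRP-LB_0, an enzyme that degrades bacterial peptidoglycan, averaged 52.9 CPM in dsInR2, 135 CPM in dsInR3 and 102 CPM in dsMock (log2 fold change -1.35, SE 0.27, adjusted p = 0.00206). LPSBP_24, 1 of many lectin copies that bind bacterial sugars and among which the division of reads is uncertain, had 8.16, 0.432, 1.78 and 42.1 CPM in dsInR2, against an average of 0.0896 CPM in dsInR3 and 0.199 CPM in dsMock. Library 8 of dsInR2 held most of its reads: the log2 fold change of 6.95 became 5.05 without it, and limma-voom did not call the gene (adjusted p = 0.465). Without dsInR2 library 4, 6 immune genes rose and 3 fell, and without dsInR3 library 6, 4 rose and 2 fell. Serine proteases and serpins had 1 of 10 tested lower, HtrA2_1 (-0.73), or 10%, near the 11.3% of all tested genes, and none higher. Autophagy and lysosome genes had 7 lower and 2 higher of 40 (17.5% and 5%; median -0.11, which became 0.27 under scaling to library totals, with 5 higher and 3 lower), with 3 lower without dsInR2 library 1 or 4 or dsInR3 library 5, and 4 lower without dsInR2 library 7 or dsInR3 library 6. CTSB, the lysosomal protease cathepsin B, averaged 192 CPM in dsInR2, 571 CPM in dsInR3 and 806 CPM in dsMock (log2 fold change -1.57, SE 0.21, adjusted p = 1.4e-04). Ppt2, a lysosomal thioesterase, averaged 7.00 CPM in dsInR2, 31.7 CPM in dsInR3 and 55.9 CPM in dsMock (log2 fold change -2.17, SE 0.37, adjusted p = 7.7e-04). Of 34 genes of nitrogen, urate and amino acid metabolism 5 rose and 7 fell (14.7% and 20.6%, beside 11.6% and 11.3% of all tested genes; 8 and 6 under scaling to library totals), with 3 higher without dsInR2 library 4 or 7 or dsInR3 library 5. FAH, the fumarylacetoacetase that ends tyrosine breakdown, averaged 75.9 CPM in dsInR2, 20.3 CPM in dsInR3 and 19.4 CPM in dsMock (log2 fold change 1.90, SE 0.25, adjusted p = 1.2e-04). gpt2, an alanine aminotransferase, averaged 25.02 CPM in dsInR2, 100.04 CPM in dsInR3 and 176 CPM in dsMock (log2 fold change -1.998, SE 0.28, adjusted p = 2.0e-04). Kyat3, a transaminase of the tryptophan pathway, averaged 35.3 CPM in dsInR2, 85.2 CPM in dsInR3 and 83.0 CPM in dsMock (log2 fold change -1.27, SE 0.15, adjusted p = 6.3e-05). Genes of DNA replication and cell cycle had 1 of 43 higher and 1 lower (2.33% each, below the 11.6% and 11.3% of all tested genes). The higher was the replication factor C subunit Gnf1 (0.60, adjusted p = 0.0549 without dsInR3 library 7). The lower was the DNA polymerase subunit POLD2 (-1.12).

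**Figure D5:**
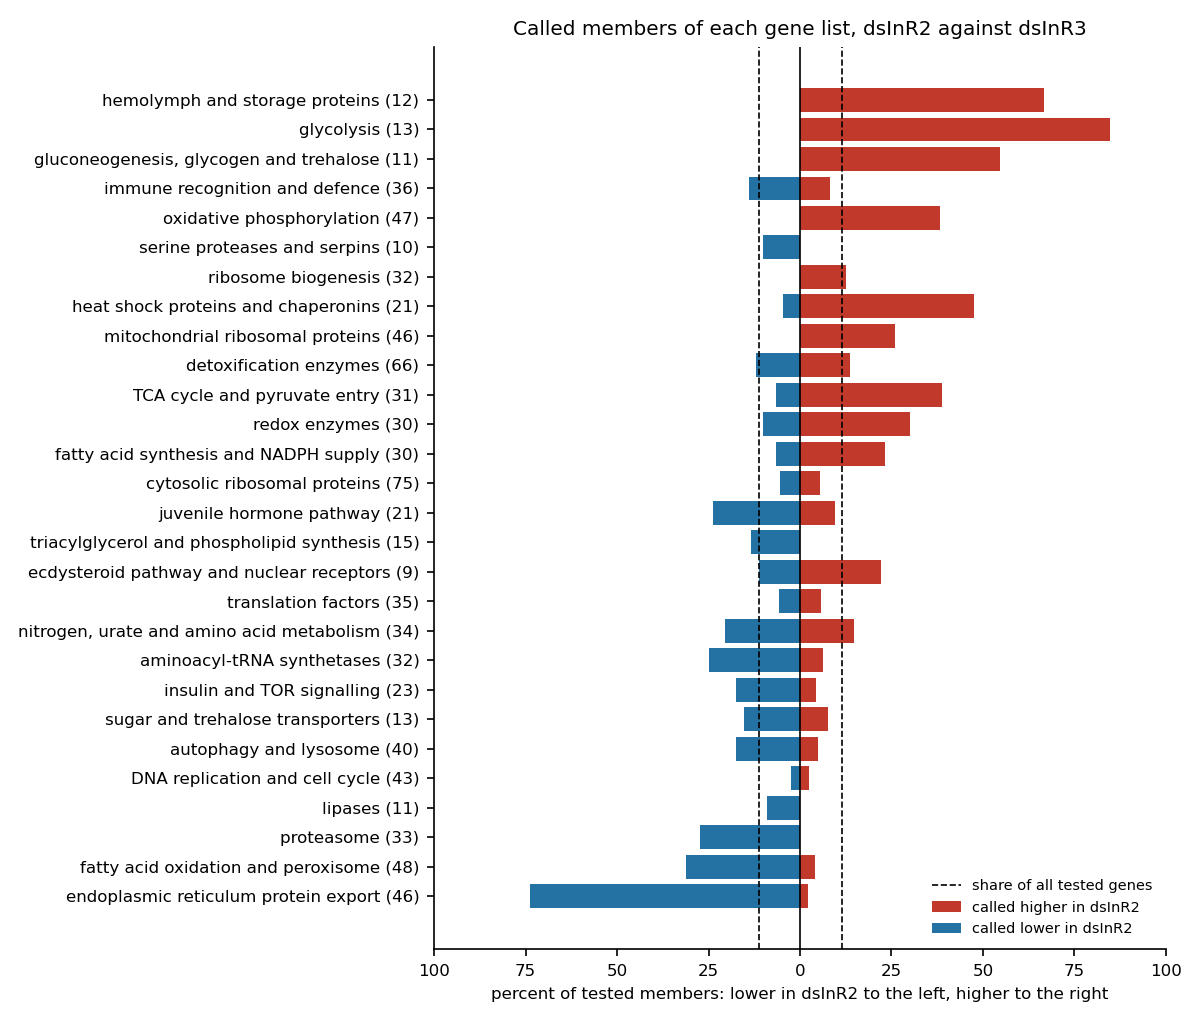
Bars give the percent of tested members of each of 28 gene lists that were called higher (to the right) or lower (to the left) in dsInR2 than in dsInR3, and the dashed lines mark the percent of all tested genes, 11.6 and 11.3. Glycolysis and hemolymph proteins reach farthest to the right and endoplasmic reticulum export farthest to the left.

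Other large differences were spread over several functions. alas2, the 5-aminolevulinate synthase that starts heme synthesis, had 23.3, 37.9, 22.1 and 6.75 CPM in dsInR2, 211, 270.0, 308 and 214 CPM in dsInR3 and 239, 232, 198 and 219 CPM in dsMock, with dsInR2 below all others (log2 fold change -3.48, SE 0.37, adjusted p = 2.7e-05). Mal-B1_3, a maltase and 1 of the gut markers above, averaged 36.9 CPM in dsInR2, 389 CPM in dsInR3 and 435 CPM in dsMock (log2 fold change -3.40, SE 0.49, adjusted p = 2.3e-04). Slc2a1, a sugar carrier, averaged 6.54 CPM in dsInR2, 144 CPM in dsInR3 and 439 CPM in dsMock (log2 fold change -4.46, SE 0.93, adjusted p = 0.00299), and -3.12 without dsInR3 library 6 or -5.14 without dsInR2 library 1. CPTP, a ceramide-1-phosphate transfer protein, averaged 6.43 CPM in dsInR2, 45.4 CPM in dsInR3 and 34.6 CPM in dsMock (log2 fold change -2.82, SE 0.31, adjusted p = 3.7e-05). 4CL3_1 and 4CL3_2, annotated as 4-coumarate--CoA ligases, fell by 3.18 and 3.03 on the log2 scale, and a pair of neighbouring loci annotated as extracellular serine/threonine protein, C0J52_18475 and C0J52_18476, by 3.41 and 3.48. In the other direction ZNF726, a zinc finger protein, averaged 61.2 CPM in dsInR2, 2.75 CPM in dsInR3 and 2.35 CPM in dsMock (log2 fold change 4.47, SE 0.77, adjusted p = 8.8e-04), and its log2 fold change was 3.66 without dsInR2 library 8. The alkylglycerol monooxygenase agmo, which cleaves ether lipids, had 9.83, 5.50, 23.3 and 45.7 CPM in dsInR2, against an average of 2.69 CPM in dsInR3 and 5.07 CPM in dsMock (log2 fold change 2.98, SE 0.59, adjusted p = 0.00221, and log2 fold change 2.27 without dsInR2 library 8). ACSF2, an acyl-CoA synthetase, averaged 50.4 CPM in dsInR2, 6.87 CPM in dsInR3 and 6.496 CPM in dsMock (log2 fold change 2.87, SE 0.52, adjusted p = 0.00117), and ITIH4_3 27.4 CPM in dsInR2, 2.52 CPM in dsInR3 and 2.003 CPM in dsMock (log2 fold change 3.42, SE 0.55, adjusted p = 5.5e-04, and log2 fold change 2.73 without dsInR2 library 4). Of abundant loci without a product name, C0J52_05895 had 638 CPM in dsInR2, 10706 CPM in dsInR3 and 17775 CPM in dsMock. C0J52_10194 had 5585 CPM in dsInR2, 12422 CPM in dsInR3 and 10963 CPM in dsMock, and C0J52_17248 had 1027 CPM in dsInR2, 3224 CPM in dsInR3 and 5149 CPM in dsMock. The transcript that led the libraries, C0J52_15443, missed the threshold between dsInR2 and dsInR3 (log2 fold change -4.33, SE 1.54, adjusted p = 0.0555).

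In dsInR3 against dsMock, 32 of 10536 genes passed (0.304%), while 1546 had an unadjusted p under 0.05 (14.7%), and the smallest adjusted p was 0.0124. Without dsMock library 1 none passed, without dsInR3 library 6 there were 101 higher and 46 lower, and DESeq2 called 294 higher and 150 lower. Rab3-GEF, a regulator of vesicle release, had 11.9, 12.96, 10.8 and 10.6 CPM in dsInR3 and 5.43, 6.57, 6.19 and 5.87 CPM in dsMock (log2 fold change 0.94, SE 0.13, adjusted p = 0.0124), and its level in dsInR2, 12.3 CPM, did not differ from dsInR3 by a margin that passed (adjusted p = 0.684). NUDC_1, a nuclear migration protein, averaged 43.8 CPM in dsInR2, 47.3 CPM in dsInR3 and 25.9 CPM in dsMock, and ttc37, a tetratricopeptide protein, 11.1 CPM in dsInR2, 9.80 CPM in dsInR3 and 3.49 CPM in dsMock; neither differed between dsInR2 and dsInR3 by a margin that passed. Of the 10 genes of smallest p in this comparison, 4 also passed between dsInR2 and dsInR3: C0J52_08783, Aldh5a1, a succinate-semialdehyde dehydrogenase (log2 fold change -0.61), C0J52_00176 (-0.57) and SPON1, a spondin (0.66). The SPON1 call was lost without dsInR2 library 1 or 8 or dsInR3 library 3 or 6 (adjusted p = 0.07, 0.0872, 0.0615 and 0.0845). The others were C0J52_00719, C0J52_22373 and C0J52_13639.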

How the data were processed

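Fat body poly(A) RNA was sequenced with a stranded kit, per the labels' protocols. The deposited table holds raw read counts per gene and length-normalised values, all made by the authors; FastQC, HISAT2, StringTie and Trimmomatic are named in the submitters' processing notes, with versions not given in the sources used here, and the build is Bger_1.1, per the file headers. The 32 columns of length-normalised values were not used. Control columns carry the name dspolyh and were taken as dsMock, the group left. Gene names and products came from the deposited table, with the locus name where a symbol was missing or not unique. Positions came from the reference table of Bger_1.1, which matched all 28676 genes.

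Counts were tested with edgeR 4.0.16 (R 4.3.3): filterByExpr, TMM, 1 coefficient per group over 16 libraries, quasi-likelihood test, two-sided, Benjamini-Hochberg over 10536 genes, threshold 0.05. SE is the log2 fold change divided by the root of F. CPM is after TMM, and log2 CPM for the exact permutation test used a prior count of 2. On simulated counts of 10392 genes for dsInR2 against dsInR3, 44% of 100 genes changed 2-fold and 92% of 100 genes changed 4-fold were called. There were 7 false calls of 143. Only genes of higher counts were changed there, and all others had the same mean in all groups. Far fewer genes differed than were called in the real data, so these rates need not hold for it. Alternatives were limma-voom (limma 3.58.1), DESeq2 1.42.0, other scalings, no filter, fits on 2 groups and leaving out each library. Named genes were the insulin receptor and called insulin and TOR genes, the 10 largest changes each way at 10 CPM or more without overlap, the 5 most abundant called genes each way, the 3 smallest p of each list, the opposite genes (of those described without a test, the 10 with informative names and the largest smaller change) and the 10 smallest p of dsInR3 against dsMock. Other list members were added as examples after values were seen. Members and lists were chosen with earlier results of these data known.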

Additional observations from a re-analysis of the deposited data

Results flagged for a closer look

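Of 117 genes examined in 3 groups each, 32 of 351 combinations of gene and group held 1 library set apart in CPM. Its gap to the nearest other library, as a share of the range of the 4, exceeded Dixon's critical value for 4 samples. For normally distributed values chance flags about 1 group in 20, a rate that need not hold for CPM of these selected genes. Of the 32, 9 were in library 3 of dsInR3, the library that also lay apart on the first principal component. In dsInR2 library 1 this held for sdha at 220.0 CPM and Aldh5a1 at 87.5 CPM. In dsInR2 library 4 this held for IGFBP at 136 CPM, mRpL23 at 9.97 CPM and POLD2 at 2.16 CPM. In dsInR2 library 7 this held for GstD1_1 at 465 CPM, Rpl27 at 118 CPM and C0J52_00023 at 12.0 CPM. In dsInR2 library 8 this held for Lip1_1 at 29.2 CPM and tpsA at 35.9 CPM. In dsInR3 library 3 this held for CRPI_2 at 15600 CPM, CRPI_1 at 1044 CPM, CPTP at 36.2 CPM, CRPI_4 at 10400 CPM, MDH2_2 at 274 CPM, DAP3 at 19.9 CPM, PRDX6_0 at 4.66 CPM, NUDC_1 at 60.02 CPM and C0J52_13639 at 1.02 CPM. In dsInR3 library 5 this held for Eip74EF at 2.22 CPM. In dsInR3 library 6 this held for IGFBP at 537 CPM and C09D4.1_2 at 0.149 CPM. In dsMock library 1 this held for MTHFD2 at 44.5 CPM and ANPEP_1 at 2.54 CPM. In dsMock library 3 this held for MDH2_2 at 189 CPM and DAP3 at 11.3 CPM. In dsMock library 4 this held for Mal-B1_3 at 835 CPM, PGRP-LB_0 at 134 CPM, Tret1_11 at 1201 CPM and C09D4.1_2 at 1.41 CPM. In dsMock library 5 this held for pik3c3 at 27.4 CPM and ITIH4_1 at 28.01 CPM.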

How the results depend on the processing

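No paired analysis was possible because the columns carry library numbers, not the replicate numbers of the labels, and dsInR2 and dsInR3 share only the number 7. The InR difference kept its direction and call in all 19 alternatives, between -2.87 and -2.51 over the leave-one-out fits. Scaling to library totals gave 2895 genes higher and 500 lower for dsInR2 against dsInR3, 4270 higher and 528 lower for dsInR2 against dsMock, 2 lower for dsInR3 against dsMock and 0 in opposite directions. The fit on only the 2 groups of a contrast gave 717 higher for dsInR2 against dsInR3, and 7 higher and 5 lower for dsInR3 against dsMock. Without the filter on low counts dsInR3 against dsMock gave 11 higher and 6 lower, and 1 gene in opposite directions. DESeq2 gave 294 higher and 150 lower for dsInR3 against dsMock and 16 opposite, and limma-voom gave 36 higher and 17 lower. Leaving out 1 library gave 807 to 1350 higher and 912 to 1270 lower for dsInR2 against dsInR3, 1412 to 1876 higher and 1369 to 1560 lower for dsInR2 against dsMock, 0 to 101 higher and 0 to 46 lower for dsInR3 against dsMock, and 0 to 3 opposite. The causes were not tested. In the comparison for which it was named, no fold change of a named gene changed sign. NUDC_1 and C0J52_13639, named for dsInR3 against dsMock, did change sign between dsInR2 and dsInR3. NUDC_1 was at -0.166 without dsInR3 library 5 and at 0.0259 without dsInR3 library 3. C0J52_13639 was at -0.349 without dsInR2 library 7 and at 0.374 under library totals. Of the values of named genes between dsInR2 and dsInR3, 1916 kept their call and 116 lost it. Between dsInR3 and dsMock 154 kept it and 55 lost it. Medians of the gene lists for aminoacyl-tRNA synthetases and for nitrogen metabolism lay so near 0 that their sign changed under several settings. Under library totals the medians for insulin and TOR signalling, lipases, DNA replication, sugar transporters, proteasome, fatty acid oxidation and autophagy turned positive. There the balance of calls also turned from lower to higher for insulin and TOR signalling, juvenile hormone, immune, autophagy and nitrogen genes, lipases, triacylglycerol synthesis, and serine proteases and serpins. Depth was 15345964 to 23688522 reads per library.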
